A study of Mus musculus with 6 samples.

Results

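The genes described here encode the proteins of the cytosolic ribosome, measured in mammary glands of female mice at 10 and 5 weeks of age. They were chosen by name, as every probe set whose single gene symbol in the platform annotation starts with Rpl or Rps, without the Rps6k kinase and Rps19bp genes. That gave 106 probe sets for 50 genes, of 18193 genes with a single symbol on the array, and the brightest probe set stood for each gene. All mice, at both ages, carried the same pair of transgenes: their parents were what the labels call LH and MMTV-neu mice. The mammary tumour virus promoter of the second transgene directs the oncogene neu to the mammary epithelium. RNA of 3 animals was pooled for an array and 3 such pools were measured per age, which makes 9 animals at 10 weeks and 9 at 5 weeks. No group without the transgenes is part of the comparison, so age cannot be told apart from the length of time under the transgenes.

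A ribosome has a large and a small subunit, whose proteins are named with the prefixes Rpl and Rps. The cell makes these proteins in near equal amounts, and their mRNAs are among the most abundant in any growing tissue. Many of those mRNAs begin with a run of pyrimidines, which lets nutrient and growth signals that act through the kinase mTOR switch their translation together. The mammary epithelium builds up its secretory machinery as the gland develops, and ribosomes are part of it. A few of the proteins have near copies encoded by separate genes, some of which are used mainly in particular tissues such as striated muscle or testis.

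Of the 50 genes, 48 passed the filter on dim probe sets, which kept those with a mean log2(signal + 32) of at least 7.07. At 10 weeks, 16 of the 48 were called higher and 2 lower by limma at a Benjamini-Hochberg adjusted p of 0.05, against 15.3% and 18.7% of all 13002 genes tested. The median log2 difference of the 48 was 0.24, beside -0.0037 over all genes tested. Differences ran from -3.18 for Rps4l to 0.71 for Rpl22l1. The 3 pools at 10 weeks all lay above those at 5 weeks for 28 of the 48 genes and below them for 5, against 24% and 26.3% of all genes tested. These 48 genes fell into 3 kinds: 34 canonical genes read by a bright probe set, 8 canonical genes read by a dimmer one, and 6 near copies.

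**Figure D1:**
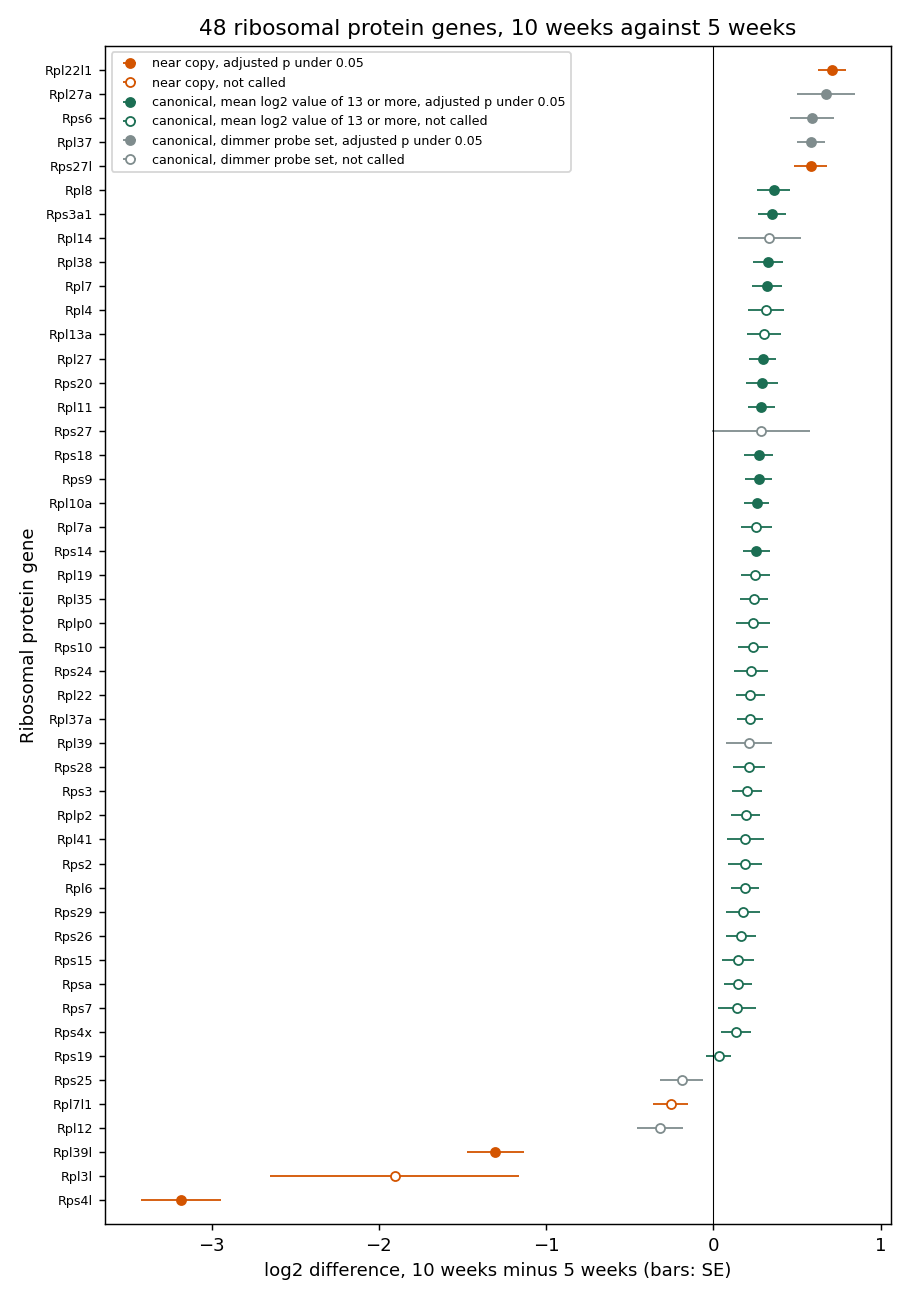
Log2 difference between 10 and 5 weeks for each of the 48 genes tested (x axis, 10 weeks minus 5 weeks), with bars for the SE of the fit. Filled points passed the test. The bright canonical genes (green) sit together between 0.03 and 0.36, and the near copies (orange) run from -3.18 to 0.71.

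Of the 34 bright canonical genes, with a mean log2 value of at least 13, 11 were called higher at 10 weeks, none was called lower and 23 were not called. In the deposited scaling all 34 had a positive difference, from 0.03 to 0.36 with a median of 0.24, and the ages overlapped for 11 of them. These calls depended on how the arrays were scaled to each other. After quantile normalization, which gives every array the same distribution of signals, none of the 34 was called, the median became 0.05, and 27 of the 34 had a positive difference, while the other 7 lay between -0.11 and -0.0050. With each array centred on its median instead, 16 of the 34 were called higher and the median was 0.26. With no variance trend in the fit none was called, and with no filter on dim probe sets 1 was, at the same median. A further 158 genes of other kinds were as bright. Of these 24.1% were higher and 12% lower in the deposited scaling, with a median of 0.14, and after quantile normalization 30 were higher and 34 lower, with a median of -0.025.

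The upper end of the whole array moved in the same direction. The signal that 98% of all probe sets stayed under was 5743.5, 5477.4 and 5731.5 at 10 weeks, against 5268.9, 5320.3 and 5278.4 at 5 weeks. The mean log2 value of the 34 genes was 13.89, 13.78 and 13.88 in the pools at 10 weeks, against 13.67, 13.68 and 13.50 at 5 weeks. The 5-week pool 3 stood lowest: it held the lowest value for 30 of the 34 genes, and its brightest probe set on the array read 15339.6, against 19161.7 to 22312.4 on the other 5 arrays. Without that pool the median of the 34 genes was 0.18 and 3 were called, and without 10-week pool 1 the median was 0.21 and none was called.

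**Figure D2:**
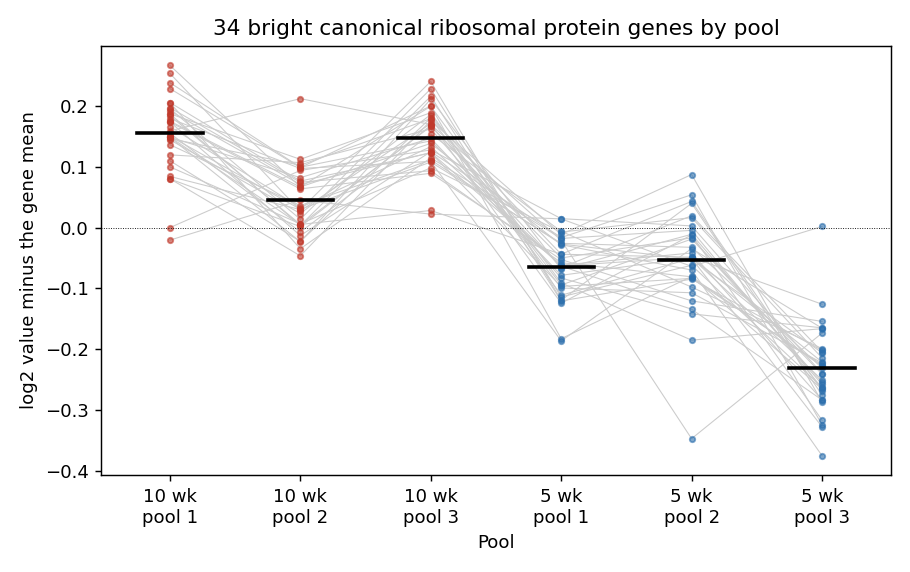
Each of the 34 bright canonical genes in each pool (points), as its log2 value minus its own mean over the 6 pools, with grey lines joining the same gene and black bars for the mean of a pool. The 10-week pools average 13.78 to 13.89 on the log2 scale and the 5-week pools 13.50 to 13.68, with 5-week pool 3 lowest.

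**Figure D3:**
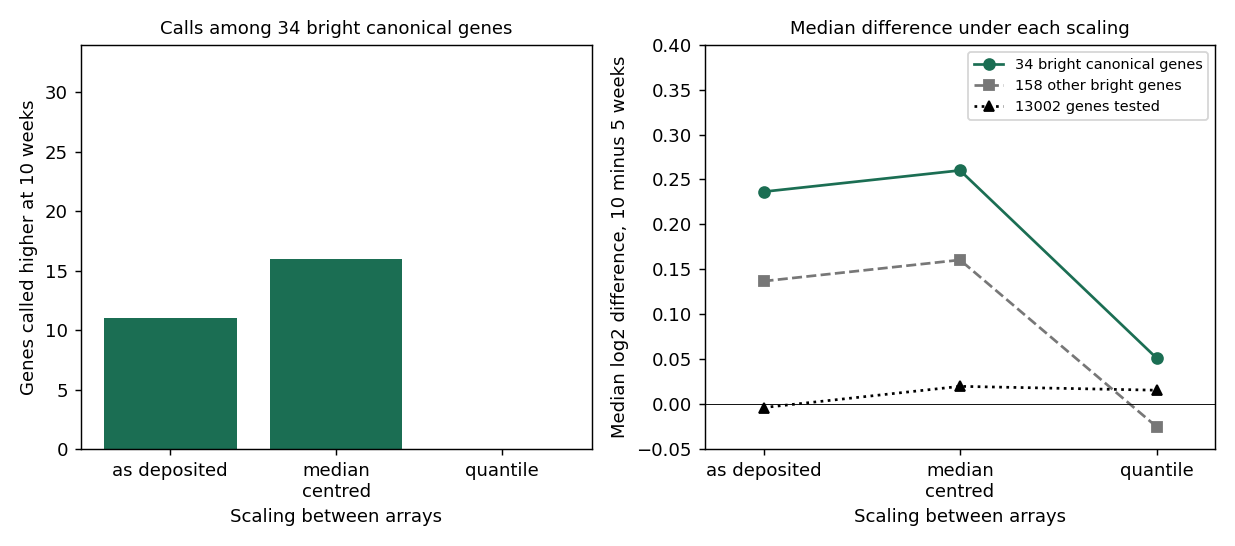
Left, the number of the 34 bright canonical genes called higher at 10 weeks under 3 scalings between arrays: 11 as deposited, 16 after centring on the median and 0 after quantile normalization. Right, the median log2 difference (10 weeks minus 5 weeks) of those genes, of 158 other bright genes and of all 13002 genes tested under the same scalings.

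Within the large subunit, 15 bright canonical genes had a median log2 difference of 0.26, and 6 were called higher in the deposited scaling. Of the 158 other bright genes, 24.1% were called higher. Rpl8, which encodes a protein close to the peptidyl transferase centre, read 11063.6, 11479.7 and 11144.5 in the pools at 10 weeks, against 9760.9, 7776.8 and 8776.6 at 5 weeks. Its ages did not overlap, and its log2 difference of 0.36 ± 0.10 (SE, adjusted p = 0.0233) was the greatest of the 34 bright canonical genes. It became 0.24 after quantile normalization (adjusted p = 0.107). Rpl38, known in mouse for its effect on the translation of Hox mRNAs, had 19320.0, 18338.1 and 19342.8 at 10 weeks and 15698.7, 16375.6 and 13504.8 at 5 weeks, a difference of 0.33 ± 0.09 (adjusted p = 0.0275). Rpl7, Rpl27, Rpl11 and Rpl10a were also called, with differences of 0.32, 0.29, 0.29 and 0.26. Rpl11 is the protein that, when free of ribosomes, binds and inhibits the p53 regulator Mdm2. After quantile normalization those 5 genes had differences of 0.13 for Rpl38, 0.15 for Rpl7, 0.10 for Rpl27, 0.17 for Rpl11 and 0.05 for Rpl10a, and none was called (adjusted p = 0.0696 to 0.629).

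Rpl41, which encodes a very short basic peptide of the large subunit, was the brightest of all the ribosomal protein genes. Its signal was 19539.4, 17156.1 and 18882.2 at 10 weeks and 17117.1, 17974.2 and 13817.3 at 5 weeks. The ages overlapped, and the difference of 0.19 ± 0.11 was not called (adjusted p = 0.235). Among the other 5 of the 6 brightest genes, Rpl38 and Rps3a1 were called, while Rps29 (0.18), Rplp2 (0.19) and Rpl7a (0.26) were not.

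The proteins of the stalk, where translation factors dock on the large subunit, did not pass the test. Rplp0, the base of the stalk, averaged 16245 ± 1254 at 10 weeks, against 13811 ± 1512 at 5 weeks (SD over 3 pools), and its ages overlapped because 10-week pool 2 (15245.8) lay under 5-week pool 2 (15354.5). Its difference was 0.24 ± 0.10 (adjusted p = 0.119). Rplp2, an acidic stalk protein, had 0.19 ± 0.09 (adjusted p = 0.132), with no overlap, and -0.0050 after quantile normalization.

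Of 17 bright canonical genes of the small subunit, 5 were called higher in the deposited scaling, near the 24.1% of the 158 other bright genes. The median of the 17 was 0.20. Rps3a1 read 18851.8, 17224.4 and 18479.5 in the pools at 10 weeks, against 14161.8, 15206.6 and 13370.8 at 5 weeks. Every 10-week pool stood above every 5-week pool, and the log2 difference was 0.35 ± 0.08 (adjusted p = 0.0135), or 0.16 after quantile normalization (adjusted p = 0.0663). Rps20 (0.29), Rps18 (0.27), Rps9 (0.27) and Rps14 (0.26) were called too, and after quantile normalization they had 0.11, 0.06, 0.09 and 0.08 with no call (adjusted p = 0.171 to 0.505). Rpsa, also known as a laminin receptor precursor, averaged 13880 ± 957 at 10 weeks, against 12530 ± 398 at 5 weeks (SD over 3 pools), and its difference of 0.15 ± 0.08 was not called (adjusted p = 0.225). Rps19, the gene mutated most often in the human anaemia of Diamond and Blackfan, moved least. It read 9133.0, 9559.3 and 9409.2 at 10 weeks and 9358.0, 8862.3 and 9276.6 at 5 weeks, a difference of 0.03 ± 0.08 (adjusted p = 0.795), which was -0.11 after quantile normalization (adjusted p = 0.348).

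Canonical genes read by a dimmer probe set gave more varied results. Of 8 such genes tested, 3 were called higher and none lower, beside 15.3% and 18.7% of all genes tested. Their differences ran from -0.32 to 0.67. Their mean signals at an age reached at most 4786.5, against at least 7798.2 for the bright canonical genes. Whether these dimmer probe sets read the main transcript of their genes was not tested, so the differences below hold for the probe sets. Rps6, which encodes the small subunit protein phosphorylated by the S6 kinases downstream of mTOR, read 1453.0, 1492.8 and 1271.6 in the pools at 10 weeks, against 954.2, 785.1 and 1038.2 at 5 weeks. The ages did not overlap, and its difference of 0.59 ± 0.13 (adjusted p = 0.0103) was 0.62 after quantile normalization (adjusted p = 0.00896). Rpl37, a zinc-binding protein of the large subunit, read 4899.1, 4652.8 and 4807.5 at 10 weeks and 3111.4, 3195.6 and 3240.1 at 5 weeks. Its pools lay close together within each age, with a difference of 0.58 ± 0.08 (adjusted p = 0.00112), and 0.52 after quantile normalization (adjusted p = 0.00122). Rpl27a rose by 0.67 ± 0.17 (adjusted p = 0.0187) on a dim probe set, with 406.6, 543.3 and 587.2 at 10 weeks and 353.9, 271.4 and 296.7 at 5 weeks. It did not stay called in every subset of the pools: the adjusted p was 0.0627 when the second 10-week pool was left out, 0.0683 when the third was, and 0.0544 when the second 5-week pool was.

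The remaining 5 of these dim genes were not called. Rpl12 (-0.32), Rps25 (-0.19), Rpl39 (0.21), Rps27 (0.28) and Rpl14 (0.33) had adjusted p values of 0.114 to 0.506, at mean signals of 317 to 909. Rps27 overlapped widely, with 749.2, 556.4 and 543.5 at 10 weeks and 631.9, 281.0 and 673.6 at 5 weeks. Rps16 and Rps15a-ps6, a gene named as a pseudogene, did not pass the filter. Their highest signals in any pool were 9.4 for Rps16 and 60.8 for Rps15a-ps6. For Rps16, whose product is a core protein of the small subunit, the single-symbol probe set therefore gives no usable reading.

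The near copies went both ways, and their differences ran from -3.18 to 0.71. Of the 6, Rpl22l1 and Rps27l were called higher, Rps4l and Rpl39l were called lower, and Rpl7l1 and Rpl3l were not called. Over all genes tested 15.3% were higher and 18.7% lower. The calls of Rpl22l1, Rps27l, Rps4l and Rpl39l held after quantile normalization, without a variance trend and without any 1 of the 6 pools, and so did those of Rps6 and Rpl37. No other member's call held under all of these. Rps4l passed the filter only through its 5-week pools, so its direction is not counted as support. Without it 1 member was called lower. Of the 18 members called, 13 rest on a probe set whose name carries a suffix for probes shared between transcripts, of 1 gene or of several, Rpl22l1, Rpl37 and Rps27l among them, so signal from other transcripts may be part of those readings and was not measured.

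Rpl22l1 encodes a near copy of the large subunit protein Rpl22, and in mouse the Rpl22 protein is known to restrain Rpl22l1 expression. Rpl22l1 read 9431.5, 8633.6 and 8650.4 in the pools at 10 weeks, against 5668.5, 5202.8 and 5437.0 at 5 weeks. Its ages stood far apart for their spread, with a log2 difference of 0.71 ± 0.08 (adjusted p = 0.00048). On the scale used here this was the greatest increase among the 48 genes. After quantile normalization Rpl27a had the greater difference of these 2 genes, 0.75 against 0.60 for Rpl22l1. Rpl22 itself had 13339.3, 12159.9 and 13037.3 at 10 weeks and 11373.4, 11486.7 and 10189.7 at 5 weeks, a difference of 0.22 ± 0.09 that was not called (adjusted p = 0.0839).

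Rps27l, a near copy of the small subunit gene Rps27 and a known p53 target, read 10933.4, 9236.1 and 11052.4 at 10 weeks and 7286.6, 6917.0 and 6560.2 at 5 weeks. Its difference was 0.58 ± 0.10 (adjusted p = 0.00264). The other two probe sets of Rps27l gave 0.64 and 0.59 and were called as well (adjusted p = 0.00246 and 0.00133). Of these probe sets, the brightest and the one at 0.59 are of the kind whose probes may also bind similar genes.

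Rps4l was the gene with the lowest 10-week reading among the near copies. It is a mouse near copy of the X-linked gene Rps4x, whose protein is part of the small subunit. Its signal was 22.1, 42.3 and 57.5 in the 10-week pools, against 468.6, 678.0 and 725.0 in the 5-week pools. Each 10-week value lay in the dim range below 103, the signal that matches the filter, and the files used here hold no detection call, so the size of the difference is uncertain and depends on the offset. The fitted value was -3.18 ± 0.24 with an offset of 32 (adjusted p = 6.5e-05), -3.98 with 1 and -2.35 with 100. Rps4x read 13996.5, 13113.4 and 13981.5 at 10 weeks and 12990.6, 13207.1 and 11247.9 at 5 weeks, and its difference of 0.14 ± 0.09 was not called (adjusted p = 0.289).

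Rpl39l, the near copy of Rpl39 that is known from mouse testis, fell as well. It read 119.8, 110.9 and 135.0 at 10 weeks and 411.6, 295.2 and 342.8 at 5 weeks, with no overlap and a difference of -1.30 ± 0.17 (adjusted p = 0.000785). At an offset of 1 the difference was -1.50, and at 100 it was -1.01. Rpl7l1, a relative of Rpl7, read 1147.6, 1282.8 and 1238.2 at 10 weeks and 1470.9, 1391.5 and 1535.0 at 5 weeks. Its ages did not overlap either, but the difference of -0.26 ± 0.10 was not called (adjusted p = 0.0928).

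Rpl3l is the near copy of Rpl3 that striated muscle uses. Its signal was 36.9, 379.2 and 496.2 at 10 weeks and 729.9, 479.6 and 1987.9 at 5 weeks. The ages overlapped, and the difference of -1.91 ± 0.75 was not called (adjusted p = 0.0871). Skeletal muscle genes moved beside it: of 18 tested none was higher and 7 were lower, beside 15.3% and 18.7% of all genes tested. Their mean log2 value was 8.77, 11.73 and 11.65 in the pools at 10 weeks, against 13.06, 12.13 and 13.24 at 5 weeks. The lowest pool for both was 10-week pool 1 and the highest was 5-week pool 3, and without 10-week pool 1 the Rpl3l difference was -0.99. The part of muscle in the Rpl3l values was not tested. In whole glands, fewer cells of a type and less RNA per cell cannot be told apart.

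**Figure D4:**
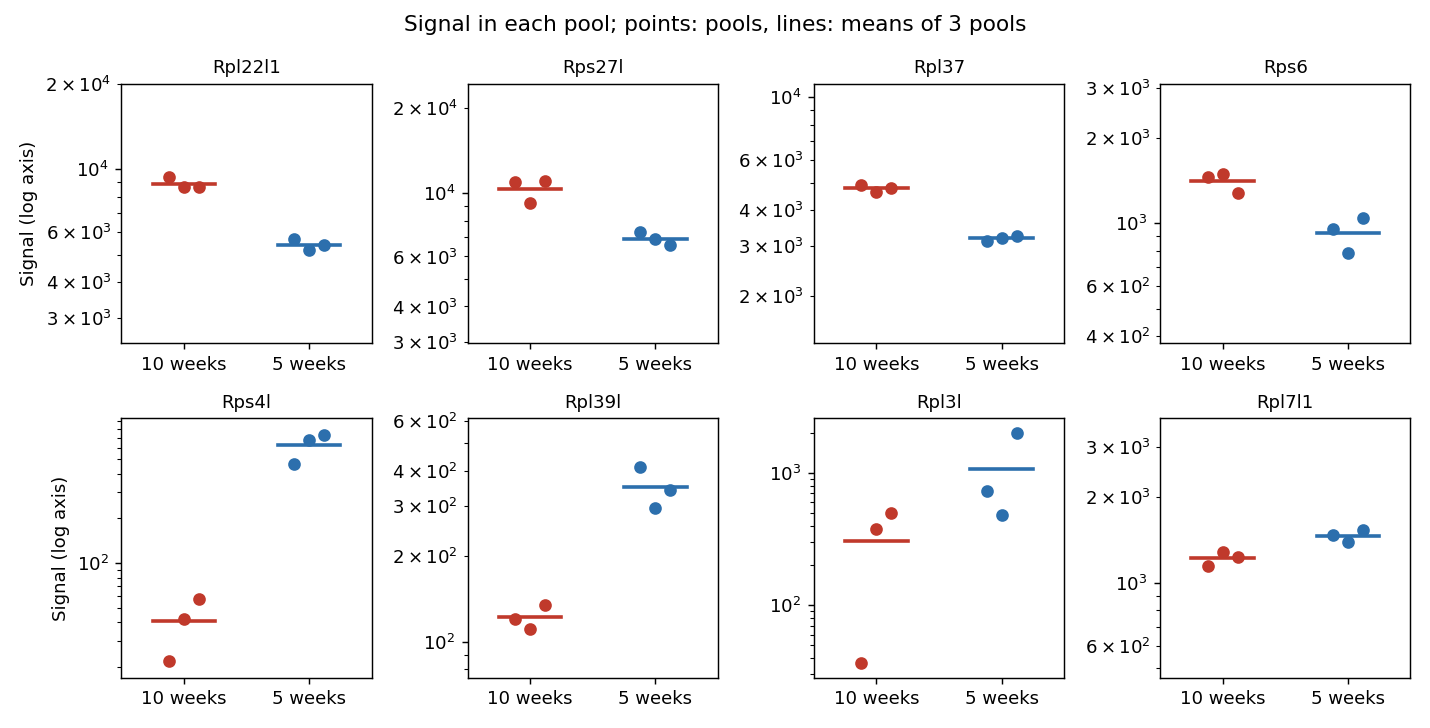
Signal of 8 ribosomal protein genes in each pool (points, log axis), with lines for the means of 3 pools at 10 weeks (left in each panel) and 5 weeks (right). Rpl22l1, Rps27l, Rpl37 and Rps6 lie higher at 10 weeks, Rps4l, Rpl39l and Rpl7l1 lie lower, and Rpl3l overlaps.

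The ratio of a near copy to its canonical gene within an array is left as it is by any single factor applied to that array, apart from the offset, but not by quantile normalization. This ratio was compared between the ages for 5 combinations with an exact permutation test, two-sided, which cannot go below 0.1 with 3 pools against 3. The log2 ratio of Rpl22l1 to Rpl22 was 0.49 ± 0.08 (SE) higher at 10 weeks. That of Rpl39l to Rpl39 changed by -1.52 ± 0.15, that of Rps4l to Rps4x by -3.32 ± 0.32 and that of Rpl7l1 to Rpl7 by -0.58 ± 0.13. In these 4 the ages did not overlap and the exact p was 0.1, the smallest possible (0.125 when adjusted over the 5). Among all genes tested, the ages did not overlap for 24% (higher at 10 weeks) and 26.3% (lower), on single values rather than ratios. For Rps27l and Rps27 the ratio changed by 0.30 ± 0.41 with overlap (exact p = 0.5). The probe sets of Rps27 and Rpl39 were the dim ones described above, so the ratios of Rps27l and Rpl39l rest on a dimly read canonical gene. Rps4l passed the filter only through its 5-week pools. Its 10-week signals of 22.1, 42.3 and 57.5 each lay below the signal that matches the filter. The size and SE of its ratio change therefore depend on the offset. Its direction is the one the filter favoured and is not counted as support. After quantile normalization the changes were 0.54 for Rpl22l1, -1.52 for Rpl39l, -3.10 for Rps4l, -0.40 for Rpl7l1 and 0.12 for Rps27l, with the same signs.

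**Figure D5:**
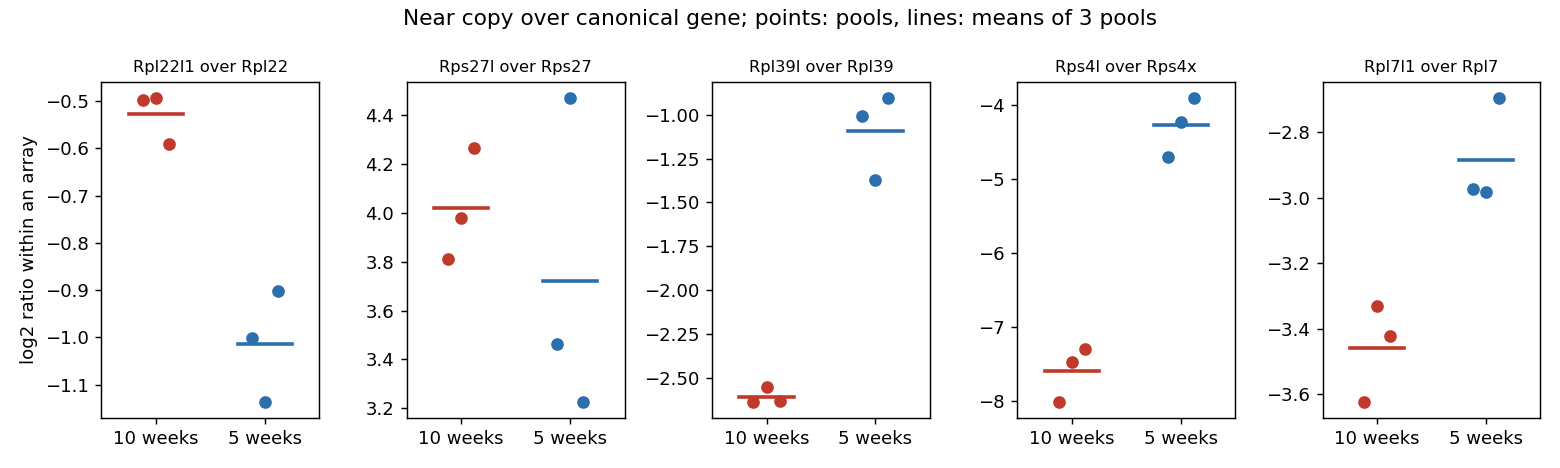
Log2 ratio of a near copy to its canonical gene within each array (points), with lines for the means of 3 pools at 10 weeks (left in each panel) and 5 weeks (right). The ages do not overlap for Rpl22l1 (change of 0.49), Rpl39l (-1.52), Rps4l (-3.32) and Rpl7l1 (-0.58), and overlap for Rps27l (0.30). The sizes of the Rps4l and Rpl39l changes depend on the offset.

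The starts of these genes are shown to compare the near copies with their canonical relatives and with Rps6 and Rpl38, both called higher. RefSeq sequences of GRCm38.p6 matched 43 of the 50 genes, and the most upstream start of each was used. Each window runs from 30 bases before the start to 30 from it on. A run is an unbroken stretch of C and T, read from its first C. Capitals mark the longest run of 5 or more bases that begins within 10 bases of the annotated start, or the first if runs are equally long.
Rpl22l1 (chr3:28805478-28805537, plus strand): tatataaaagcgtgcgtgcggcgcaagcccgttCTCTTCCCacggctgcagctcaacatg
Rpl22 (chr4:152324406-152324465, plus strand): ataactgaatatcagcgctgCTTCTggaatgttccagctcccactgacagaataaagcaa
Rps27l (chr9:66946056-66946115, plus strand): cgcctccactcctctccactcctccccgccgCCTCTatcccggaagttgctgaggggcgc
Rps27 (chr3:90213619-90213678, minus strand): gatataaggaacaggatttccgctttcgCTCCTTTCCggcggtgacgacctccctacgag
Rpl39l (chr16:10170198-10170257, plus strand): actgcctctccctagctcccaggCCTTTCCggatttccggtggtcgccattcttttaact
Rpl39 (chrX:37085193-37085252, minus strand): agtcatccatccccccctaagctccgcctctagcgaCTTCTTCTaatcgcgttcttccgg
Rpl3l (chr17:24727796-24727855, plus strand): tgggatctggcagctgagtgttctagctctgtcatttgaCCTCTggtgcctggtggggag
Rps6 (chr4:86857338-86857397, minus strand): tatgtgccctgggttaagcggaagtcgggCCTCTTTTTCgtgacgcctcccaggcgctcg
Rpl38 (chr11:114668550-114668609, plus strand): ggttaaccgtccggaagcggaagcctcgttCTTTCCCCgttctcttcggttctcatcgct

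Such a run was present in 25 of the 43 genes (58.1%), and in 29.1% of the 27025 genes with a start in the table. Among the sequences shown it is 10 bases long in Rps6, 9 in Rps27, 8 in Rpl22l1, Rpl39 and Rpl38, and 5 in Rpl22, Rps27l and Rpl3l. Genes with the run moved in both directions: Rpl22l1 was higher at 10 weeks, while Rpl39l, with a run of 7, was lower. In the full windows of 250 bases before to 50 after the start, searched on both strands, CCGGAAG, the core bound by ETS factors, was present in 48.8% of the 43 genes and in 9.14% of all genes. AAGATGG, the core bound by the factor YY1, was in 18.6% of the 43 and in 6.46% of all, and the TATA box letters TATAAA were in 14% and 14.2%. The CCGGAAG letters were found for Rps27l, Rpl39l, Rps6, Rpl37 and Rpl38, again with differences of either sign. A match describes the letters in a window and is not a site of binding.

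Other parts of the translation machinery were read from lists chosen by function. Of 31 translation factors and proteins tested with them, 10 were higher and 1 lower, beside 15.3% and 18.7% of all genes tested. Their median log2 difference was 0.25. After quantile normalization 8 were higher and 1 lower, with a median of 0.13. Eif2s2, a subunit of the factor that brings the initiator tRNA, read 6443.3, 5926.7 and 6626.4 at 10 weeks and 5102.4, 4859.6 and 3669.5 at 5 weeks (0.49 ± 0.13, adjusted p = 0.0217). Larp1, which binds the pyrimidine run of ribosomal protein mRNAs downstream of mTOR, read 4049.0, 3873.4 and 3315.4 at 10 weeks and 2596.3, 2660.7 and 2778.8 at 5 weeks (0.47 ± 0.10, adjusted p = 0.00891). Both rose without overlap between the ages. Eef1a2, the elongation factor form of muscle and neurons, fell to 515.5, 1840.5 and 1530.6 at 10 weeks, against 5677.6, 2466.1 and 7296.9 at 5 weeks (-2.01 ± 0.49, adjusted p = 0.0157). It was lowest in 10-week pool 1 and highest in 5-week pool 3, the pools in which the skeletal muscle genes stood lowest and highest, and the part of muscle was not tested.

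Fau, which encodes a ubiquitin-like protein fused to a small subunit protein, was the single gene tested from a list of 6 ubiquitin fusion and ribosome-bound proteins. It read 12197.1, 11729.7 and 11774.0 at 10 weeks and 9602.2, 9503.2 and 8594.0 at 5 weeks, without overlap. It rose by 0.37 ± 0.08 (adjusted p = 0.0102), and it was also called after quantile normalization, with a difference of 0.24.

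Of 37 assembly factors and polymerase I genes, 4 were higher and 2 lower, beside 15.3% and 18.7% of all genes tested, and their median was 0.01. Nhp2, a protein of the particles that guide pseudouridine formation in ribosomal RNA, rose by 0.58 ± 0.13 (adjusted p = 0.00847) and Pes1, which acts in large subunit assembly, by 0.48 ± 0.13 (adjusted p = 0.0278). Rrp9, a protein of the U3 particle, fell by 0.66 on the log2 scale (adjusted p = 0.0416), and Rrs1, an assembly factor of the large subunit, fell by 0.44 (adjusted p = 0.0171). Mitochondrial ribosomal proteins, which belong to a separate ribosome, gave 7 higher and 7 lower of 76 tested, with a median of -0.07. Mrpl38 (0.47) and Mrpl44 (0.47) were the greatest increases among them, and Mrps16 (-0.78) and Mrpl3 (-0.52) the greatest decreases.

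Of 15 S6 kinases and regulators of mTORC1, the complex that controls ribosomal protein translation, 1 was higher and 2 were lower, with a median of -0.09. Over all genes tested 15.3% were higher and 18.7% lower, so these few calls do not set the list apart. Akt1s1, an inhibitory subunit of the complex, read 3664.8, 3878.1 and 3733.0 at 10 weeks and 2916.6, 2698.2 and 2582.3 at 5 weeks (0.46 ± 0.09, adjusted p = 0.0059). Mtor, the kinase itself, read 959.3, 1148.3 and 1140.7 at 10 weeks and 1376.4, 1582.1 and 1551.3 at 5 weeks (-0.46 ± 0.12, adjusted p = 0.0174). Rps6ka6, a kinase of the RSK family, fell by 0.81 on the log2 scale (adjusted p = 0.0166).

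Cell type marker genes differed between the ages as well. Their counts stand beside 15.3% higher and 18.7% lower of all genes tested. Of 14 luminal epithelial genes 11 were higher and 1 lower at 10 weeks, and their mean log2 value was 12.08 to 12.34 at 10 weeks and 11.03 to 11.49 at 5 weeks. Milk protein genes were higher in 7 of 11 cases, with means of 13.38 to 13.68 at 10 weeks and 11.80 to 12.61 at 5 weeks. Skeletal muscle genes, described above, had means of 8.77 to 11.73 at 10 weeks and 12.13 to 13.24 at 5 weeks. At 5 weeks these muscle means lay above the luminal means. Fibroblast genes were lower in 9 of 10 cases and adipocyte genes in 3 of 9, with means of 12.14 to 12.26 and 12.69 to 13.01 at 10 weeks and 13.04 to 13.22 and 13.03 to 13.33 at 5 weeks. No gene of 11 lymph node B and T cell genes was called, and their mean was 7.92 to 8.57 at 10 weeks and 7.47 to 9.65 at 5 weeks, with 5-week pool 2 highest. Whether the cell makeup differed was not measured, and the part of these cells in the ribosomal protein values was not tested. Array medians were 156.4 to 172.5.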

How the data were processed

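Total RNA of mammary glands was measured on 6 arrays with a UTP-biotin label, per the labels. The authors deposited 1 linear signal intensity per probe set. A trimmed mean (2% left out at each end) came to 500 for each array's values. Not given in the sources used here are the signal algorithm, detection calls, batches and scan dates.

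The 64 control probe sets of 45101 were left out. Signals were raised to at least 1, and differences are on the log2(signal + 32) scale, where those of dim genes come out too small. Array medians differed by at most 0.118, and arrays were left as scaled. Dropping the dimmest 40% by mean log2 value left 27022 for limma 3.58.1 in R 4.3.3 (lmFit, eBayes with trend, age alone, 4 residual degrees of freedom, Benjamini-Hochberg over all probe sets). Background genes took RefSeq symbols through gene identifiers (34741 of 34945 matched). The steps were tested on simulated data. The number of arrays limits precision, and pools of an age hold different animals, so the spread covers pools and the array step together. Replicate numbers follow accession order.

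Named genes are the called members, the 6 brightest, the near copies with their canonical relatives, the stalk proteins, Rpsa and Rps6, and from each list of translation or ribosome genes the 2 greatest calls in each direction. Rps19, Rps16, Rps15a-ps6, Rpl12, Rpl14 and Rps25 were named after their values were seen. The members, lists and alternatives were chosen with earlier results of these data known. Alternatives changed the offset, filter, scaling, variance model, array weights and probe set, and left out each pool. Plots used Python 3.11.15 and matplotlib 3.10.9.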

Additional observations from a re-analysis of the deposited data

How the results depend on the processing

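No paired analysis was possible because replicate numbers follow accession order and pair no pools. The count of ribosomal protein genes called higher was 16 of 48 in the main setting, beside 15.3% of all genes tested. It was 6 of 50 with no filter, 5 of 48 with quantile normalization and 5 of 48 with no variance trend. Over all genes tested, 10.2%, 16.1% and 13.9% were higher in these 3 settings. With the brightest plain probe set, which exists for fewer genes, it was 3 of 24, beside 14.2%. When 1 pool was left out it was 5 to 9 of 48, beside 10.9% to 13.4%. The count of 2 called lower was 0 with the 60% dimmest probe sets left out, since Rps4l and Rpl39l were then not tested, and 3 with the plain probe sets, where Rps24, otherwise read by a bright probe set, was called lower on a dim one at -0.4987 (adjusted p = 0.0353). The median difference of 0.24 became 0.0555 with quantile normalization and 0.15 with the plain probe sets. With quantile normalization the sign turned for 7 of the 34 bright canonical genes, Rps19 (-0.1115), Rps4x (-0.0616), Rps7 (-0.0502), Rpsa (-0.0454), Rps29 (-0.0204), Rpl6 (-0.0062) and Rplp2 (-0.0050). With plain probe sets it turned for 4 of 13, Rps24, Rps3 (-0.2278), Rps18 (-0.0542) and Rpl41 (-0.0302), and without 5-week pool 2 for Rps27, whose difference was -0.0925 to 0.4939 when 1 pool was left out. Of these genes, Rps18 alone was called to begin with. The ratios of near copies to canonical genes under quantile normalization were added after seeing the data and kept their signs. The causes were not tested. The number of genes called over the whole array stayed within 1.5 times of 1992 higher and 2436 lower in each of the 17 alternatives. With 3 arrays per age and no detection calls, levels of probe sets near the filter are uncertain.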

Other observations

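A further 110 probe sets carry several symbols with at least 1 Rpl or Rps gene among them, mostly a gene listed with its pseudogenes, and were no members. Of 103 that passed the filter, 20 were higher and 3 lower at 10 weeks, with a median log2 difference of 0.21. Over all 27022 probe sets tested, 3634 were higher and 4140 lower, with a median of 0.01. The 65 of them with a mean log2 value of at least 13 had a median of 0.22, with 14 higher and 1 lower, beside the median of 0.24 of the 34 bright single-symbol genes. The 106 single-symbol probe sets together held 3.10%, 2.88% and 3.07% of the summed signal of an array at 10 weeks, against 2.69%, 2.72% and 2.50% at 5 weeks.

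Of the 50 genes, 24 had several probe sets, and none had calls in both directions. Rps3, an entry channel protein of the small subunit, had a bright probe set at 0.20, a dim one that was called higher at 0.82 (adjusted p = 0.00649) and another dim one at -0.23. Rps24 had its bright probe set at 0.22 and a dim one that was called lower at -0.50 (adjusted p = 0.0353), with 461.7, 454.8 and 488.4 at 10 weeks and 697.7, 794.4 and 553.1 at 5 weeks. These genes were picked after their values were seen.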
